A study of Homo sapiens with 36 samples.

Results

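The messages examined here encode the proteasome. Members were the protein-coding genes in the authors' deposited table whose symbol begins with PSMA, PSMB, PSMC, PSMD, PSME, PSMF or PSMG and a number, with a mean of at least 10 counts over the 9 input libraries. Of 50 symbols that match, 46 were members, out of 60675 genes counted. The input mean was 18.0 counts for PSMD5, the member nearest the limit, and 5.0 for PSMB9, 1.0 for PSMB8, 0.11 for PSMA8 and 0 for PSMB11, which were left out. The members were 7 genes of the alpha ring, 7 of the beta ring, the inducible beta subunit PSMB10, 6 ATPases, 3 non-ATPase subunits of the base, 8 lid subunits, 7 assembly chaperones, 4 activators, the inhibitor PSMF1, and PSMC3IP and PSME3IP1, which match the pattern by name but encode proteins that interact with a subunit. All 46 passed the filter on low counts and were tested.

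RNA was sequenced from HEK293T, a cell line of human embryonic kidney origin, expressing a fusion of YTHDF1, YTHDF2 or YTHDF3 to the RNA-editing enzyme ADAR (each line is called here by its fusion, such as YTHDF1-ADAR). In each line, 3 libraries were made from input lysate and 3 from each RNA immunoprecipitation (RIP) with antibodies to endogenous YTHDF1, YTHDF2 or YTHDF3, 36 libraries in all. Every group carried a fusion and had received doxycycline at 1 ug/mL for 24 h, and neither cells without a fusion nor a mock RIP were analysed here. No label states that replicates came from separate cultures, and a p-value here therefore speaks only of the spread among these libraries, which may be technical.

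The proteasome degrades proteins marked with ubiquitin. Its 20S core is a barrel of alpha and beta rings with the peptidase sites inside; the 19S cap has a base, where a ring of ATPases unfolds substrates beside ubiquitin-binding subunits, and a lid that removes ubiquitin. YTHDF1, YTHDF2 and YTHDF3 are cytoplasmic proteins that bind N6-methyladenosine (m6A) in messenger RNA. RIP measures which messages come down with a protein, as a level against input, and the ADAR fusion leaves A-to-I edits on RNAs it meets.

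PSMB3 and PSMD2 are shown first because PSMB3 had the lowest mean over the 9 comparisons of a RIP with input and PSMD2 was the highest member in YTHDF2 RIP. PSMB3 (ENSG00000277791; GRCh38 chr17:38752741-38764225, plus strand) encodes a beta ring subunit without peptidase activity. PSMD2 (ENSG00000175166; chr3:184299198-184309050, plus strand) encodes a large scaffold of the base that binds ubiquitin-like domains. The 250 bases before the RefSeq start of each gene (GRCh38.p14, plus strand) follow, with matches on either strand to CCAAT (an NF-Y motif), TGACNNNGC (an antioxidant-response core, bound by NFE2L1 and NFE2L2) and CCGGAAG (an ETS motif) in capitals. The windows are chr17:38752491-38752740 and chr3:184298991-184299240; the second runs into the gene model of the count files, which begins further upstream than RefSeq's.
PSMB3: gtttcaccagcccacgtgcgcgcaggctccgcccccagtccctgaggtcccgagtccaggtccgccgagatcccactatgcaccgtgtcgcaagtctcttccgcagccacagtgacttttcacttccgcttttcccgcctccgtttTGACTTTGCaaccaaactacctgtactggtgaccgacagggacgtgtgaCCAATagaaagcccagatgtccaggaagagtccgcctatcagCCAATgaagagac
PSMD2: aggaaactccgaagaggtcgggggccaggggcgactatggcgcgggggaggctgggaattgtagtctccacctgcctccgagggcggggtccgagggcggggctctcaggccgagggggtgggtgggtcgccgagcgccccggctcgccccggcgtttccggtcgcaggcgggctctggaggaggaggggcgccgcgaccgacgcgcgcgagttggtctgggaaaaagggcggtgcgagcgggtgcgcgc
The PSMB3 window held 3 matches and the PSMD2 window none. Of 40 members with a window, 19 (47.5%) held CCAAT, against 37.0% of 27305 genes. TGACNNNGC stood in 12 (30%), against 13.2%, and CCGGAAG in 12 (30%), against 10.2%. A match describes the letters only, and no binding was measured.

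Library totals ran from 12.5 to 37.5 M counts (median 28.1). YTHDF1 RIP from the YTHDF2-ADAR and YTHDF3-ADAR lines (6 libraries) stood apart, with 12.5 to 16.3 M counts, 54.1 to 74.2% of them in protein-coding genes and 0.696 to 4.35% in snoRNAs. The other 30 libraries had 71.5 to 92.4% and 0.0360 to 0.564%. In the inputs, YTHDF1 was highest in YTHDF1-ADAR cells (634 ± 97.4 CPM, counts per M counts of the library after scaling, SD, n = 3, against 87.9 ± 2.03 and 94.0 ± 5.10), and YTHDF2 and YTHDF3 were highest in their own lines. ADARB1 was also a planned check of the fusion lines, and its input counts were lowest in YTHDF2-ADAR cells. The reason was not tested. Of 12 markers of other cell types, 7 (PTPRC, HBB, CD3E, DCN, ALB, APOA1 and KRT5) did not pass the filter. The 5 that did had group means of 9.84 to 17.4 CPM (CD74), 7.62 to 44.1 (COL1A1), 1.37 to 12.4 (CDH1), 0.24 to 3.07 (COL3A1) and 0 to 0.58 (LUM). COL1A1 and COL3A1 were highest in YTHDF2 RIP of YTHDF3-ADAR cells and lowest in YTHDF1 RIP of YTHDF2-ADAR cells, and their part in the results was not tested. Counting ignored strand and gave a read to every gene it overlapped, so the 10 members that share at least 10% of their exon bases with another gene are uncertain: PSMA1, PSMA2, PSMA6, PSMB10, PSMC1 (76.1%, with NRDE2 on the opposite strand), PSMC5, PSMD7 (31.2%), PSMD9, PSMG4 and PSMC3IP. Pseudogenes carry the name of 16 members, most often PSMC1, with 13.

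In the inputs, most beta ring messages and PSMA7 stood among the most abundant members per kb of exon. The other alpha ring genes ranked lower, from 14th (PSMA1) to 33rd (PSMA2), and PSMB2 was 18th. Exon length here covers all exon bases of the gene model, not those of a single transcript. PSMB4, a beta ring subunit, had the highest level (94.3 ± 17.2 CPM per kb of exon, SD over 9 inputs), followed by PSMA7 of the alpha ring (88.8 ± 11.6), PSMB5 (68.9 ± 8.9) and PSMB3 (63.1 ± 13.8). These neighbours lay within each other's spread. PSMD2 was 10th, at 37.1 ± 4.72 CPM per kb, and PSMD5 was lowest, at 0.16 ± 0.06. Between input of YTHDF1-ADAR and YTHDF2-ADAR cells, PSMB1 was lower in the first by 0.76 ± 0.15 (log2, SE; edgeR adjusted p = 0.00104), and PSMA2 was the other of 2 members called lower, against 4.3% of all genes. The PSMA2 difference (-0.51, edgeR adjusted p = 0.0319) missed the threshold without replicate 1 of the YTHDF1-ADAR input (-0.30) or any replicate of the YTHDF2-ADAR input (-0.47 to -0.55). Against YTHDF3-ADAR input, 3 members were lower in YTHDF1-ADAR input (PSMA1, PSMB2 and PSMB4), with 5.1% of all genes lower. PSMA1 (-0.57) missed the threshold without replicate 1 of the YTHDF1-ADAR input (-0.45) or replicate 3 of the YTHDF3-ADAR input (-0.48). PSMB2 (-0.61) was lost without YTHDF1-ADAR input replicate 1 (-0.43) or any YTHDF3-ADAR input (-0.53 to -0.66), and PSMB4 (-0.47) without YTHDF1-ADAR input replicate 1 (-0.31) or 2 (-0.48) or any YTHDF3-ADAR input (-0.44 to -0.50). No member was called between YTHDF2-ADAR and YTHDF3-ADAR inputs by edgeR, where 7 had an unadjusted p under 0.05, 3.42% of all genes were called, and DESeq2 called 2 members.

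Most proteasome messages were lower than input in YTHDF1 RIP and YTHDF3 RIP, and 15 to 23 of 46, by line, in YTHDF2 RIP. The core had the lowest medians, the ATPases and the other cap subunits lay nearer input, and a few cap and activator messages rose in YTHDF2 or YTHDF3 RIP (the heat map of RIP against input). Each value is a log2 fold change in 1 line from edgeR's quasi-likelihood test, called at a Benjamini-Hochberg adjusted p under 0.05 over 31849 genes. The 3 RIPs of a line share its inputs. A RIP value is relative to the level in the input lysate. For an input level, fewer cells with a message and less of that message per cell cannot be told apart.

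**Figure D1:**
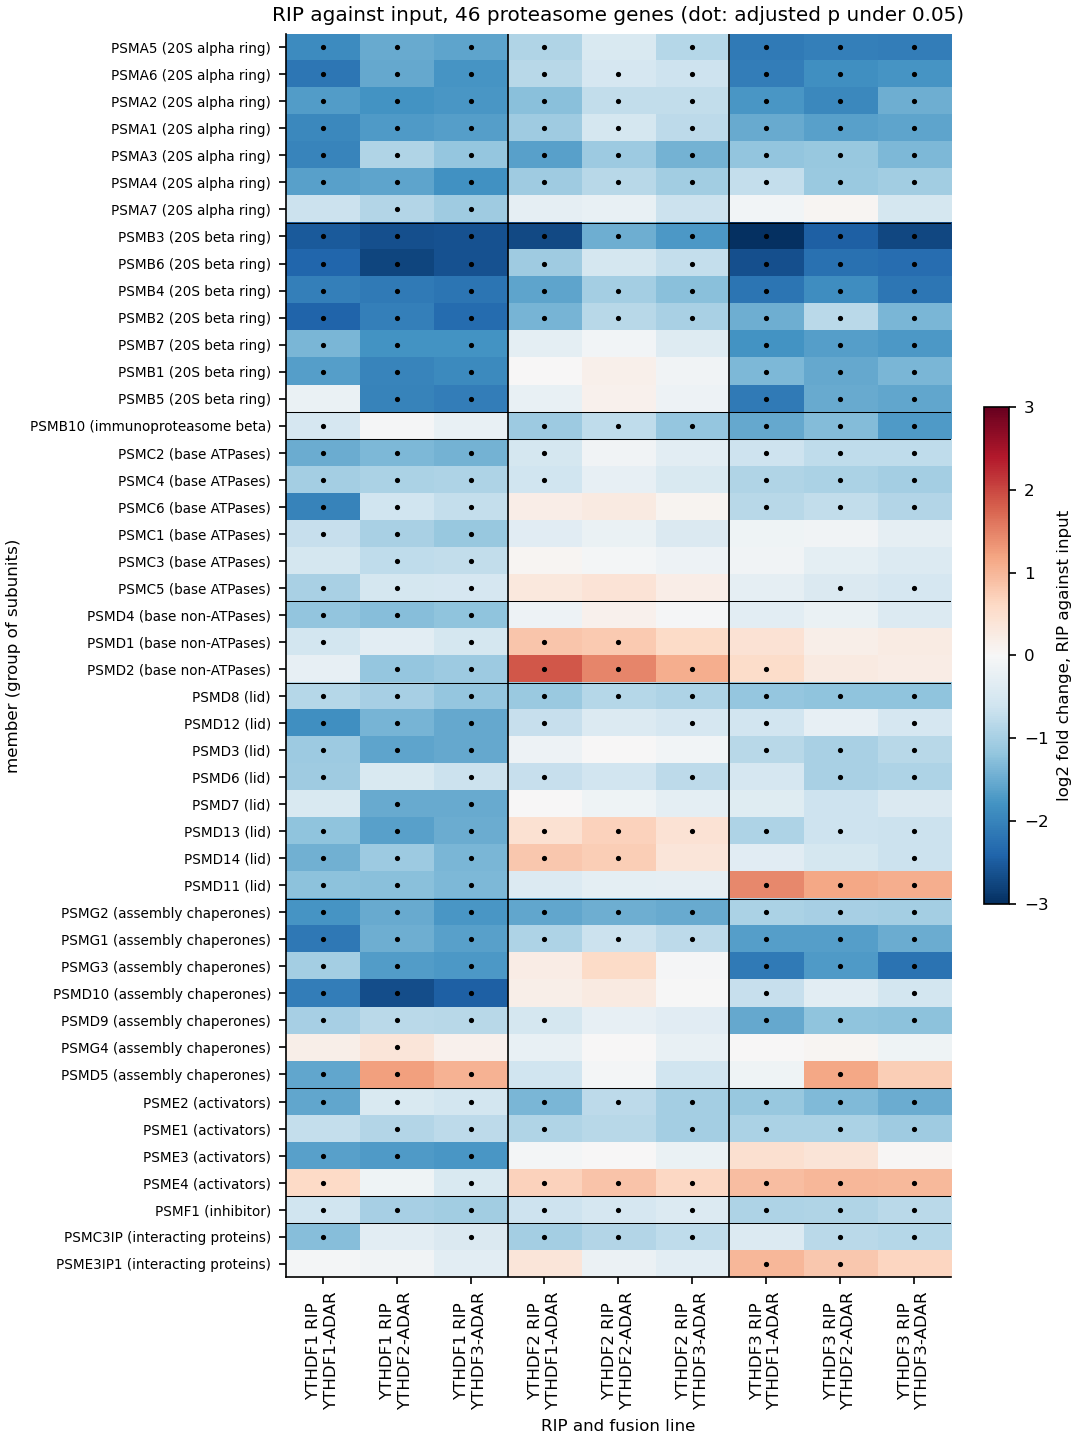
Log2 fold change of each RIP against input for the 46 proteasome genes (vertical axis, by group of subunits) in each RIP and fusion line (horizontal axis); blue is lower and red higher in RIP, and a dot marks an adjusted p under 0.05. Core genes are blue in most columns, PSMD2 is red in YTHDF2 RIP (1.87, 1.46 and 1.08), and PSMD11 is red in YTHDF3 RIP (1.45, 1.16 and 1.10).

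In YTHDF1 RIP, 37, 38 and 42 of 46 members were lower than input in the YTHDF1-ADAR, the YTHDF2-ADAR and the YTHDF3-ADAR line, against 28.8%, 33.4% and 32.4% of all genes tested (49.5%, 75.2% and 73.2% were called in either direction). The median over members was -1.25, -1.27 and -1.35, against -0.28, 0.20 and 0.21 over all genes tested and -0.18, -0.57 and -0.53 over 14681 protein-coding genes with the same input minimum. Higher in this RIP were 1, 2 and 1 members, against 20.6%, 41.8% and 40.8%. Of those protein-coding genes, 38.9%, 55.4% and 54.5% were lower and 30.8%, 18.7% and 18.6% higher. The same 32 members were called lower in all 3 lines, and PSME3IP1 was the only one called in none.

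In YTHDF2 RIP, 23, 15 and 20 members were lower, in the same order of lines, against 15.5%, 10.1% and 9.93% of all genes (24.1%, 20.3% and 18.9% in either direction). Members called higher numbered 5, 5 and 3, against 8.66%, 10.2% and 8.98%. The member medians were -0.53, -0.23 and -0.42, with -0.11, 0.02 and 0.00 over all genes tested. PSMD2, PSMD13 and PSME4 were called higher in all 3 lines, and 15 members were lower in all 3. When libraries were scaled to mitochondrial mRNAs, 0 members were called higher and 0 lower in all 3 lines.

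In YTHDF3 RIP, 29, 30 and 33 members were lower, against 20.1%, 16.9% and 16.1% of all genes (31.6%, 32% and 29.6% in either direction). Higher were 4, 4 and 2, against 11.5%, 15.2% and 13.5%. The member medians were -0.87, -0.92 and -0.90, with -0.23, 0.09 and 0.01 over all genes tested. PSMD11 and PSME4 were called higher in all 3 lines, and 27 members were lower in all 3.

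The subunit groups differed in depth of depletion in every RIP (the plot by group of subunits). The 14 core genes had medians of -1.91, -1.79 and -1.80 in YTHDF1 RIP, with 12, 14 and 14 called lower. In YTHDF3 RIP their medians were -1.77, -1.63 and -1.57, with 13 lower in each line, and PSMA7 was the exception. In YTHDF2 RIP they were -1.07, -0.53 and -0.76, with 10, 8 and 10 lower. No core gene was called higher in any of the 9 comparisons. The beta ring stood below the alpha ring in YTHDF1 RIP, with medians of -2.05, -2.05 and -2.20 against -1.88, -1.54 and -1.65, as a description.

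The 6 ATPase genes had medians of -0.99, -0.86 and -0.83 in YTHDF1 RIP, with 5, 6 and 6 lower. In YTHDF2 RIP the medians were -0.14, -0.09 and -0.24, with 2, 0 and 0 called, and in YTHDF3 RIP -0.44, -0.58 and -0.63, with 3, 4 and 4 lower. The 11 lid and non-ATPase base genes had medians of -1.08, -1.25 and -1.35 in YTHDF1 RIP, with 9, 9 and 11 lower. In YTHDF2 RIP their medians were -0.15, 0.01 and -0.08, with calls in both directions: 4 higher and 3 lower, 4 and 1, and 2 and 3. In YTHDF3 RIP the medians were -0.36, -0.52 and -0.51, with 2, 1 and 1 higher and 4, 4 and 6 lower. The 7 assembly chaperones had medians of -1.57, -1.47 and -1.63 in YTHDF1 RIP and -0.94, -1.0 and -1.02 in YTHDF3 RIP.

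**Figure D2:**
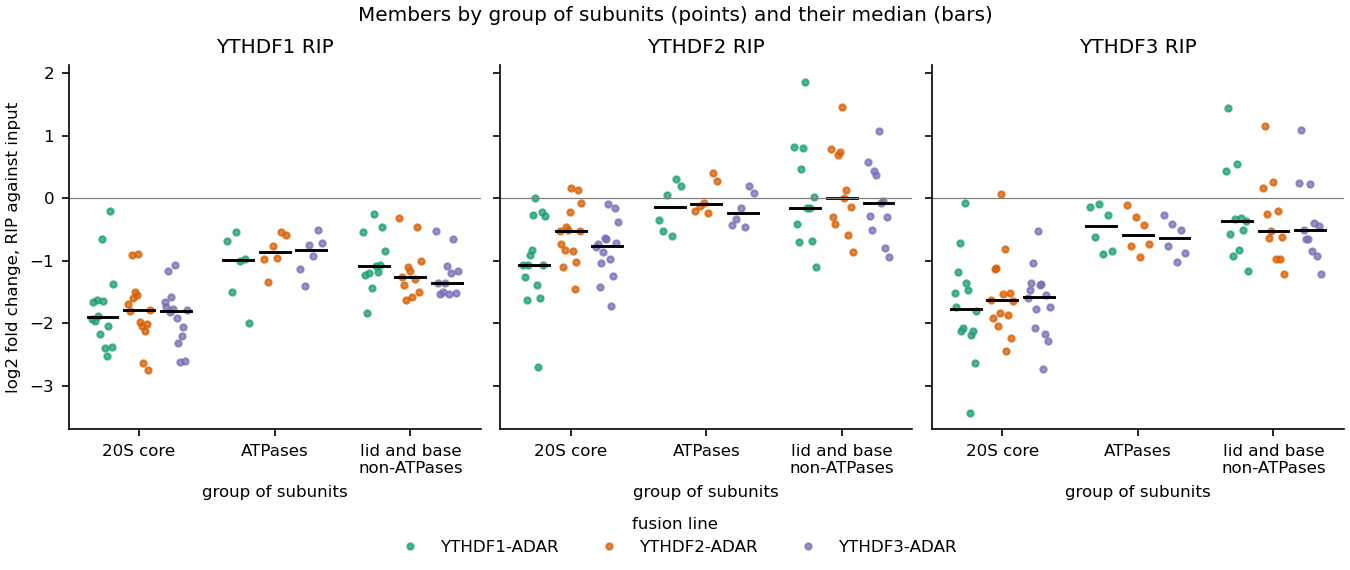
Log2 fold change of RIP against input (vertical axis) for the 14 core genes, 6 ATPase genes and 11 lid and non-ATPase base genes; each point is a gene in 1 fusion line (colour) and each bar the median. In each RIP and line the core median is the lowest, and the highest points are PSMD2 in YTHDF2 RIP and PSMD11 in YTHDF3 RIP.

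These directions depend on how libraries are scaled against each other, since a RIP enriches some RNAs at the expense of others. Under 5 other scalings the core median stayed below 0 in every RIP and line (YTHDF1 RIP -3.41 to -1.27, YTHDF2 RIP -1.02 to -0.13, YTHDF3 RIP -1.71 to -0.93). Under mitochondrial scaling, however, 0 to 3 core genes were called lower in YTHDF2 RIP and 6 to 7 in YTHDF3 RIP, with all 14 lower in YTHDF1 RIP. The ATPase median in YTHDF2 RIP changed sign (total counts -0.05 to 0.10, scaling to mitochondrial mRNAs -0.44 to 0.30), and so did that of the lid and base genes (0.04 to 0.20 and -0.28 to 0.39). In YTHDF3 RIP both changed sign under mitochondrial scaling (-0.20 to 0.19 and -0.08 to 0.24). The median over all genes tested shifted by -1.63 to -0.75 in YTHDF1 RIP under mitochondrial scaling, by 0.15 to 0.52 under total counts, by 0.02 to 0.44 under TMM on coding genes, by 0.15 to 0.16 under DESeq2 size factors and by -0.30 to 0.06 with another TMM reference library.

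The makeup of the members within a library does not depend on that scaling. The core took 34.6 to 39.6% of summed member CPM in the 9 inputs, and less in every RIP library. Its share was 24.5 to 25.5% when YTHDF1 was precipitated from YTHDF1-ADAR cells and 26.6 to 28.0% from the other lines; for YTHDF2 it was 18.6 to 29.5%, and for YTHDF3 17.2 to 23.8%. The lid and base genes took 28.9 to 31.4% of input and more in every RIP library (YTHDF2 36.5 to 48.3%, YTHDF3 37.4 to 42.8%, YTHDF1 31.5 to 34.0%). For both, input and RIP ranges did not overlap, though those of the lid and base genes nearly met in YTHDF1 RIP. The shares make up a whole, so a smaller core share raises the others. Against input, 9 to 11 of the 11 lid and base genes were called lower in YTHDF1 RIP. In YTHDF2 RIP their median log2 fold change was -0.15 to 0.01, while PSMD2, one of them, rose by 1.08 to 1.87. The share without PSMD2 was not computed. The ATPases took 10.9 to 12.8% of input and 10.5 to 16.2% of RIP, which overlap.

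PSMB3 was the lowest member, with a mean log2 fold change of -2.47 over the 9 comparisons. Its input levels were 57.8, 65.0 and 67.4 CPM in YTHDF1-ADAR cells, 64.2, 67.9 and 59.5 in YTHDF2-ADAR cells and 92.6, 104 and 84.8 in YTHDF3-ADAR cells. YTHDF1 RIP gave 8.02, 8.60 and 16.4, then 9.98, 10.2 and 10.6, then 15.4, 18.0 and 12.4 CPM. YTHDF3 RIP gave 6.06, 7.32 and 4.23, then 9.56, 17.0 and 8.66, then 13.9, 10.8 and 17.8 CPM. Every PSMB3 library from these RIPs lay below every input library of its line. YTHDF2 RIP libraries were also below input, at 5.18 to 12, 21.4 to 24.4 and 24.2 to 31.8 CPM. PSMB3 fell in YTHDF3 RIP by 3.43 ± 0.28 (edgeR adjusted p = 1.72e-11), 2.44 and 2.73, and was called lower in YTHDF1 RIP (-2.52, -2.64 and -2.62) and YTHDF2 RIP (-2.7, -1.46 and -1.73).

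The other beta genes at this end had the same order of RIPs in part. PSMB6, which encodes the caspase-like peptidase, fell in YTHDF1 RIP by 2.38, 2.75 and 2.60 and in YTHDF3 RIP by 2.64, 2.24 and 2.29. In YTHDF2 RIP PSMB6 was at -1.07 (edgeR adjusted p = 0.0023), -0.53 (0.158) and -0.72 (0.049), and the call in YTHDF3-ADAR cells was lost without any 1 of its 6 libraries (-0.67 to -0.79). PSMB4, a structural beta subunit, fell in all 9 comparisons (-2.05, -2.12 and -2.20 in YTHDF1 RIP, -1.59, -1.01 and -1.25 in YTHDF2 RIP, -2.19, -1.87 and -2.17 in YTHDF3 RIP). PSMB2, another structural beta subunit, also fell in all 9, by at least 0.81. PSMA7, an alpha subunit, was the core gene nearest input in YTHDF3 RIP (-0.08, 0.06 and -0.52, none called).

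PSMD2 was the first of 46 members in YTHDF2 RIP in each line. In YTHDF1-ADAR cells its level was 142, 175 and 182 CPM in input and 675, 498 and 643 in YTHDF2 RIP. In YTHDF2-ADAR cells it was 178, 230 and 192 in input and 572, 520 and 556 in YTHDF2 RIP, and in YTHDF3-ADAR cells 192, 194 and 172 in input and 263, 388 and 532 in YTHDF2 RIP. All 9 RIP libraries exceeded every input library, with the widest spread in YTHDF3-ADAR cells. PSMD2 rose by 1.87 ± 0.21 (edgeR adjusted p = 1.60e-08), 1.46 ± 0.20 (2.49e-06) and 1.08 ± 0.20 (0.000174), and these calls held without any 1 library. Under mitochondrial scaling the values were 2.52 (edgeR adjusted p = 0.000102), 1.83 (0.0151) and 0.85 (0.522), so the call in YTHDF3-ADAR cells was lost.

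YTHDF1 RIP gave the opposite for PSMD2 outside YTHDF1-ADAR cells. Its levels were 77.4, 91.1 and 98.4 CPM in YTHDF2-ADAR cells and 96.9, 99.5 and 65.8 in YTHDF3-ADAR cells, all below input, and it fell by 1.17 ± 0.20 (edgeR adjusted p = 5.94e-06) and 1.09 ± 0.20 (1.83e-05). In YTHDF1-ADAR cells the levels were 115, 138 and 166, which overlap input, and the log2 fold change was -0.25 ± 0.20 (edgeR adjusted p = 0.323). In YTHDF3 RIP the PSMD2 levels were 293, 245 and 193, then 244, 241 and 235, then 275, 212 and 169 CPM, and the log2 fold changes were 0.55 ± 0.20 (edgeR adjusted p = 0.0329), 0.26 (0.35) and 0.23 (0.436). The first of these calls was lost without YTHDF1-ADAR YTHDF3 RIP replicate 1 (0.40) or 2 (0.55) or input replicate 1 (0.45) or 2 (0.59).

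**Figure D3:**
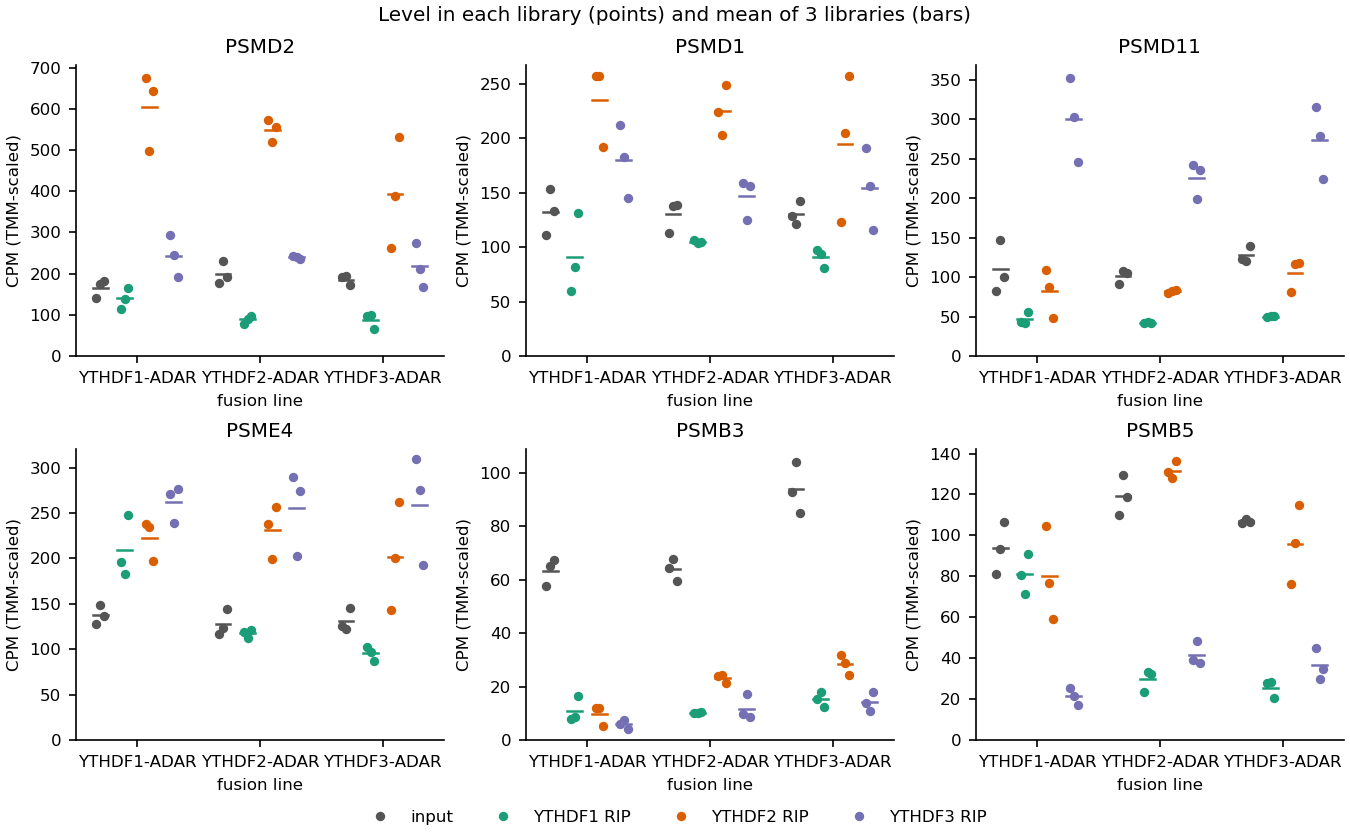
Level in CPM (vertical axes, starting at 0) of 6 members in every library; points are libraries, bars the mean of 3, colours input and the 3 RIPs, and the horizontal axis the fusion line. PSMD2 is highest in YTHDF2 RIP (263 to 675 CPM), PSMD11 in YTHDF3 RIP (199 to 353 CPM), and PSMB3 is lower in every RIP library than in the inputs of its line.

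PSMD1, the other large scaffold of the base, was 2nd after PSMD2 in YTHDF2 RIP of YTHDF1-ADAR cells and 3rd, after PSME4, in the other lines. Its input levels were 111, 154 and 133, then 113, 138 and 139, then 128, 121 and 142 CPM. In YTHDF2 RIP it had 257, 257 and 192, then 224, 203 and 249, then 123, 205 and 257 CPM, so RIP and input did not overlap in the first 2 lines and did in YTHDF3-ADAR cells. PSMD1 rose by 0.83 ± 0.22 (edgeR adjusted p = 0.00473) and 0.79 ± 0.22 (0.00844), and was at 0.58 ± 0.22 (0.063) in YTHDF3-ADAR cells. Without YTHDF2-ADAR input replicate 1 the second value was 0.70 and missed the threshold. PSMD4, a ubiquitin receptor of the base, was not called in YTHDF2 or YTHDF3 RIP in any line (-0.40 to 0.13) and was called lower in YTHDF1 RIP (-1.17, -1.29 and -1.2).

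In the lid, PSMD14 and PSMD13 had higher levels in YTHDF2 RIP. PSMD14 encodes the deubiquitinase of the lid. Its input levels were 53.0, 69.4 and 67.7, then 65.9, 71.3 and 73.7, then 73.3, 69.2 and 73.0 CPM, and in YTHDF2 RIP it had 111, 81.3 and 140, then 105, 112 and 137, then 75.7, 91.7 and 111 CPM. Every YTHDF2 RIP library lay above the inputs of its line. PSMD14 rose by 0.81 ± 0.21 (edgeR adjusted p = 0.00406) and 0.75 (0.00952) in YTHDF1-ADAR and YTHDF2-ADAR cells, with 0.37 (0.25) in YTHDF3-ADAR cells. The YTHDF2-ADAR call was lost without YTHDF2 RIP replicate 3 (0.63).

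PSMD13, a structural lid subunit, had input levels of 59.1, 69.5 and 76.5, then 83.0, 83.2 and 77.7, then 73.3, 75 and 60.7 CPM. In YTHDF2 RIP it had 114, 82.0 and 87.7, then 130, 122 and 141, then 83.1, 93.9 and 106 CPM, with no overlap within a line. It rose by 0.47 ± 0.16 (edgeR adjusted p = 0.0261), 0.69 (0.00139) and 0.44 (0.0473). The first call was lost without YTHDF1-ADAR YTHDF2 RIP replicate 1 (0.31) or input replicate 1 (0.37) or 2 (0.48), and the last without YTHDF3-ADAR YTHDF2 RIP replicate 2 (0.44) or 3 (0.35) or any of its inputs (0.35 to 0.49). PSMD13 was not called higher in all 3 lines with DESeq2 size factors, another TMM reference library or mitochondrial scaling. The same held without the filter, with lines fitted alone and with a pair of libraries left out. PSMD13 fell in YTHDF1 RIP by 1.2, 1.63 and 1.49 and in YTHDF3 RIP by 0.92, 0.63 and 0.65. PSMD8, a small lid subunit, fell in all 9 comparisons, by 0.85 to 1.22.

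PSMD11, a lid subunit that clamps lid to core and ATPases, was raised in YTHDF3 RIP and in no other. Its input levels were 82.6, 147 and 100, then 91.0, 107 and 105, then 123, 120 and 140 CPM. In YTHDF3 RIP it had 353, 303 and 246, then 242, 199 and 236, then 316, 279 and 225 CPM, all above every input. In YTHDF1 RIP its levels were between 41.6 and 55.5 CPM, below every input. In YTHDF3 RIP PSMD11 rose by 1.45 ± 0.20 (edgeR adjusted p = 5.62e-07), 1.16 (2.21e-05) and 1.10 (5.20e-05), and it fell in YTHDF1 RIP by 1.23, 1.25 and 1.35. In YTHDF2 RIP it was at -0.42, -0.29 and -0.28, none called, and YTHDF2 RIP minus YTHDF3 RIP was -1.87 ± 0.21 (edgeR adjusted p = 2.33e-08), -1.45 and -1.38. The rise in YTHDF3 RIP was called in all 3 lines under each of the 5 other scalings and without any 1 library.

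PSME4 encodes PA200, an activator that caps the core without ATPases. Its input levels were 128, 148 and 136, then 117, 123 and 144, then 126, 122 and 146 CPM. YTHDF2 RIP gave 238, 234 and 197, then 239, 200 and 257, then 143, 200 and 263, and YTHDF3 RIP gave 271, 239 and 276, then 289, 202 and 274, then 309, 275 and 192 CPM. All but 1 YTHDF2 RIP library, replicate 1 of YTHDF3-ADAR cells, lay above the inputs of their line. PSME4 rose in YTHDF3 RIP by 0.93 ± 0.18 (edgeR adjusted p = 7.82e-05), 0.99 and 0.98, and in YTHDF2 RIP by 0.70 (0.00296), 0.85 (0.000517) and 0.62 (0.0112). The last call was lost without YTHDF3-ADAR YTHDF2 RIP replicate 3 (0.39) or input replicate 2 (0.57). It was also the 1 member called higher in YTHDF1 RIP of YTHDF1-ADAR cells (0.60 ± 0.18, edgeR adjusted p = 0.00462), with 183 to 248 CPM. This value had the opposite sign, -0.48, under mitochondrial scaling. In YTHDF1 RIP of the other lines PSME4 was at -0.12 (edgeR adjusted p = 0.531) and -0.46 (0.0212), the latter a call lost without YTHDF3-ADAR YTHDF1 RIP replicate 3 (-0.39) or input replicate 3 (-0.38).

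The other activators did not follow PSME4. PSME3, the nuclear activator, fell in YTHDF1 RIP by 1.64, 1.70 and 1.74 and was not called in YTHDF2 or YTHDF3 RIP. PSME2, a subunit of the interferon-inducible activator, fell in all 9 comparisons, by 0.46 to 1.56, and its call in YTHDF1 RIP of YTHDF2-ADAR cells was lost without RIP replicate 1 (-0.38). PSMF1, the inhibitor, fell in all 9 as well, by 0.41 to 1.04. Its call in YTHDF2 RIP of YTHDF3-ADAR cells was lost without any 1 of the 3 RIP libraries (-0.35 to -0.44) or input replicate 2 or 3 (-0.39 each). PSMB10, the inducible beta subunit, fell in YTHDF2 RIP by 1.10, 0.77 and 1.16 and in YTHDF3 RIP by 1.54, 1.30 and 1.69. The PSMB10 call in YTHDF2 RIP of YTHDF2-ADAR cells was lost without RIP replicate 3 (-0.63) or input replicate 2 (-0.64). PSME3IP1, which encodes a partner of PSME3, was higher in YTHDF3 RIP of YTHDF1-ADAR cells (0.99) and YTHDF2-ADAR cells (0.80) and at 0.64, not called, in YTHDF3-ADAR cells. The call in YTHDF2-ADAR cells was lost without YTHDF3 RIP replicate 1 (0.79) or 3 (0.62) or input replicate 1 (0.74) or 2 (0.79).

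Among the ATPases, PSMC6 fell most in YTHDF1 RIP of YTHDF1-ADAR cells (by 2.0), and it fell by 0.59 and 0.72 in the other lines. It was near input in YTHDF2 RIP (0.20, 0.27 and 0.08, none called) and fell in YTHDF3 RIP by 0.84, 0.73 and 0.88. PSMC2 fell in YTHDF1 RIP by 1.49, 1.34 and 1.41, and PSMC4 by 1.01, 0.96 and 0.92. The PSMC6 call in YTHDF2-ADAR cells was lost without input replicate 3 (-0.50). With TMM on protein-coding genes PSMC6 was at -0.16 and -0.28 in the lines other than YTHDF1-ADAR, not called, and PSMC5, at -0.54 and -0.51 before, was at -0.10 and -0.07.

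The assembly chaperones were mixed. PSMD10, also known as gankyrin, fell in YTHDF1 RIP by 2.08, 2.67 and 2.46 and was at 0.17, 0.28 and -0.02 in YTHDF2 RIP, none called. PSMG2, a chaperone of alpha ring assembly, fell in all 9 comparisons, by 1.52 to 1.77 with YTHDF1, 1.47 to 1.56 with YTHDF2 and 0.94 to 1.02 with YTHDF3. PSMG4, another alpha ring chaperone, was called higher in YTHDF1 RIP of YTHDF2-ADAR cells (0.36 ± 0.12, edgeR adjusted p = 0.00822), with 54.6, 56.4 and 51.9 CPM against 42.1, 46.9 and 37.8 in input. That call was lost without YTHDF2-ADAR input replicate 3 (0.29), and the value was 0.06 with another TMM reference library and -0.41 under mitochondrial scaling.

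PSMD5, a chaperone of base assembly, was near the lower limit of detection. The YTHDF1 RIP held 0.197 to 0.446 CPM in YTHDF1-ADAR cells and 1.5 to 1.76 in YTHDF2-ADAR cells, with 0.614 to 1.32 and 0.559 to 0.824 in their inputs. Its log2 fold change in YTHDF1 RIP was -1.57 ± 0.48 (edgeR adjusted p = 0.00584), 1.23 ± 0.43 (0.00969) and 1.04 ± 0.44 (0.0331). The first call was lost without YTHDF1-ADAR input replicate 1 (-1.15), and the last without YTHDF3-ADAR YTHDF1 RIP replicate 1 (1.00) or 3 (0.89) or input replicate 1 (1.01) or 2 (0.93). Under mitochondrial scaling the last was -0.48. PSMD5 was also called higher in YTHDF3 RIP of YTHDF2-ADAR cells (1.17), a call lost without YTHDF3 RIP replicate 1 (1.02) or input replicate 1 (1.04) or 2 (1.15).

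YTHDF2 RIP and YTHDF3 RIP were then compared directly, which removes the inputs. As scaled levels, core messages were mostly higher in YTHDF2 RIP than in YTHDF3 RIP. Of 46 members, 18, 25 and 22 were higher in YTHDF2 RIP, against 10.7%, 12.1% and 9.01% of all genes, and 3, 4 and 4 lower, against 8.51%, 8.33% and 5.74% (19.2%, 20.4% and 14.8% in either direction). Of the 14681 protein-coding genes with the same input minimum, 17.2%, 21.2% and 16.1% were higher and 14.5%, 12.1% and 9.89% lower. The member medians were 0.35, 0.58 and 0.46, with 0.12, -0.02 and 0.00 over all genes tested. Of 14 core genes, 8, 10 and 10 were higher and none lower, with beta ring medians of 1.37, 1.56 and 1.29 and alpha ring medians of 0.45, 1.10 and 0.73. Lid and base genes had 4, 5 and 4 higher and 1 lower in each line, PSMD11. The core median stayed above 0 under 5 other scalings (0.41 to 1.16). Scaling to mitochondrial mRNAs, however, left 0 to 4 of the 14 core genes called higher. It left 6, 2 and 1 members called in either direction, and the median over all members was then -0.15 to 0.36.

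**Figure D4:**
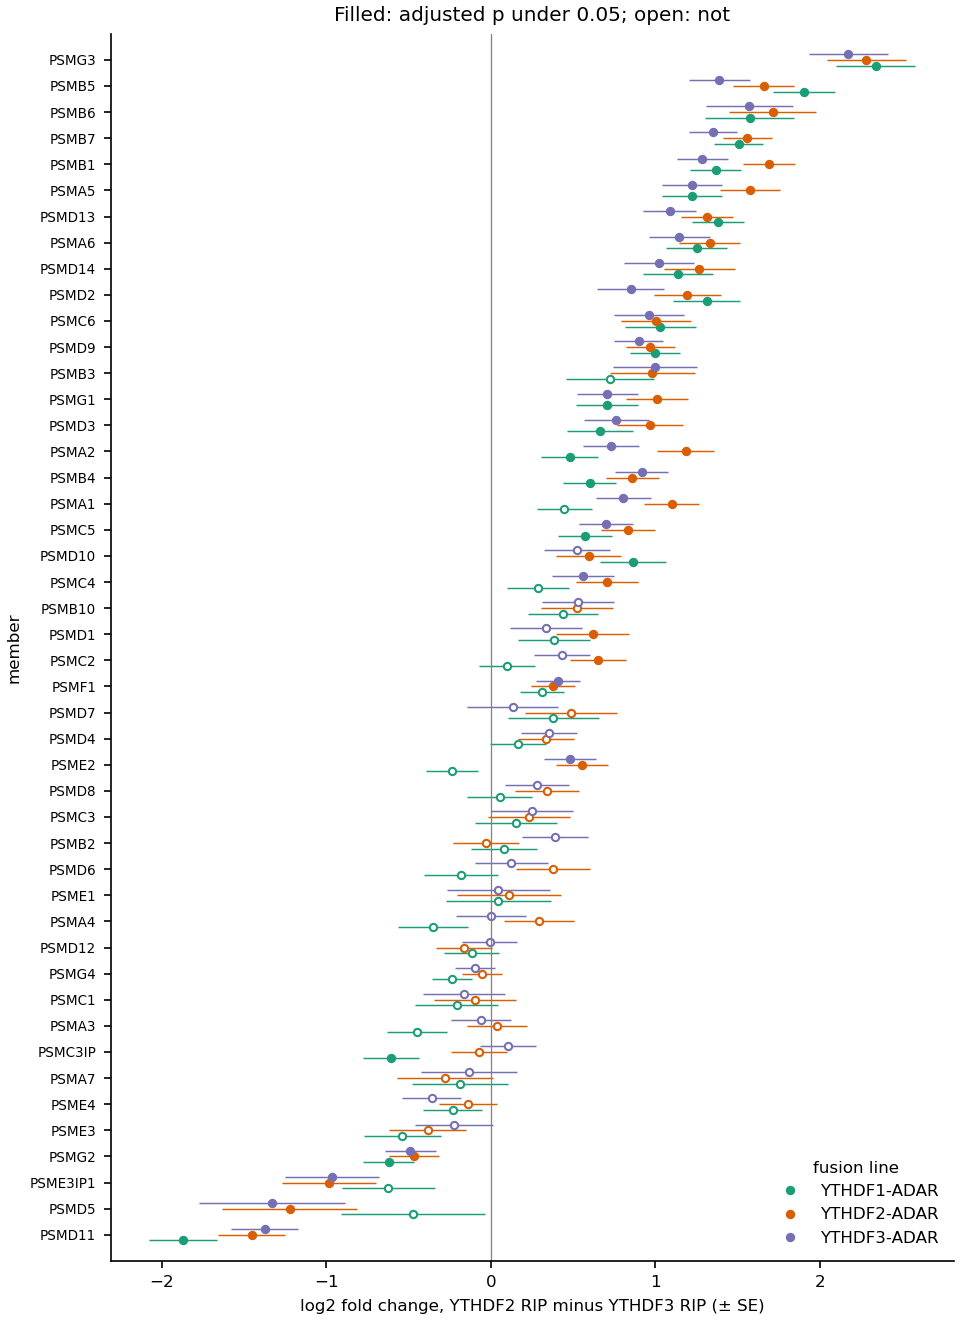
Log2 fold change of YTHDF2 RIP minus YTHDF3 RIP (horizontal axis, ± SE) for each member (vertical axis, sorted by mean) in 3 fusion lines (colour); filled points have an adjusted p under 0.05. PSMG3 is at the top (2.34, 2.28 and 2.18), followed by beta ring genes, and PSMD11 is at the bottom (-1.87, -1.45 and -1.38).

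PSMG3, a chaperone of alpha ring assembly, had the largest difference. It had 67.1, 44.4 and 46.7 CPM in YTHDF2 RIP of YTHDF1-ADAR cells, 60.1, 69.6 and 74.1 in YTHDF2-ADAR cells and 54.7, 56.0 and 61.0 in YTHDF3-ADAR cells. In YTHDF3 RIP it had 12.6, 10.3 and 8.30, then 11.1, 19.4 and 11.3, then 14.2, 11.6 and 12.2 CPM. The RIPs did not overlap, and YTHDF2 RIP was near the PSMG3 input levels of 39.5 to 64.0 CPM. YTHDF2 RIP minus YTHDF3 RIP was 2.34 ± 0.24 (edgeR adjusted p = 8.40e-09), 2.28 and 2.18.

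PSMB5, the chymotrypsin-like peptidase and main target of bortezomib, had the next largest difference by the mean over lines. Its input levels were 80.9, 93.4 and 107, then 110, 130 and 119, then 106, 108 and 107 CPM. YTHDF2 RIP gave 104, 76.8 and 58.9, then 131, 128 and 136, then 76.3, 96.1 and 115 CPM, near input, whereas YTHDF3 RIP gave 25.3, 21.6 and 17.2, then 39.1, 48.3 and 37.6, then 44.9, 29.8 and 34.7 CPM, all below. PSMB5 fell in YTHDF3 RIP by 2.13, 1.52 and 1.55 and was not called in YTHDF2 RIP (-0.23, 0.14 and -0.16). YTHDF2 RIP minus YTHDF3 RIP was 1.91 ± 0.19 (edgeR adjusted p = 3.03e-09), 1.66 and 1.39. The other peptidases had differences of 1.57, 1.71 and 1.57 (PSMB6) and 1.51, 1.56 and 1.35 (PSMB7, the trypsin-like site), and PSMB1, a structural beta subunit, 1.37, 1.69 and 1.29. PSMD2 was also higher in YTHDF2 RIP, by 1.31 ± 0.20 (edgeR adjusted p = 9.36e-06), 1.2 and 0.85. The last was lost without YTHDF3-ADAR YTHDF2 RIP replicate 3 (0.57). PSMG2 went the other way (-0.62, -0.47 and -0.49). Its second call was lost without YTHDF2-ADAR YTHDF2 RIP replicate 1 or 2 or YTHDF3 RIP replicate 1 or 3 (-0.39 to -0.49), and its last without YTHDF3-ADAR YTHDF2 RIP replicate 2 or 3 or YTHDF3 RIP replicate 2 or 3 (-0.39 to -0.50).

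Most members had a lower scaled level in YTHDF1 RIP than in YTHDF2 RIP. Lower were 25, 35 and 34 members, against 18.8%, 32.2% and 31.3% of all genes, and higher 2, 4 and 4, against 20.3%, 42.9% and 41.5% (39.1%, 75.1% and 72.9% in either direction). Over the 14681 protein-coding genes with the same input minimum, 27.5%, 55.4% and 54.9% were lower and 30.2%, 18.7% and 17.6% higher. The member medians were -0.70, -0.98 and -0.88, with -0.04, -0.59 and -0.56 over those genes. In the lines other than YTHDF1-ADAR, most of those genes were thus lower too. PSMD10 (-2.25, -2.95 and -2.44) and PSMD2 (-2.11, -2.63 and -2.17) had large differences. Higher in all 3 lines were PSMB10 (0.59, 0.74 and 0.93) and PSMG4 (0.41, 0.35 and 0.35). The first PSMB10 call was lost without YTHDF1-ADAR YTHDF1 RIP replicate 3 (0.39) or YTHDF2 RIP replicate 3 (0.42), and the PSMG4 calls in the lines other than YTHDF1-ADAR were at 0.11 and 0.09, not called, with another TMM reference library. The last was also lost without YTHDF3-ADAR YTHDF2 RIP replicate 2 (0.31).

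Between YTHDF1 RIP and YTHDF3 RIP, 22, 20 and 20 members were lower in YTHDF1 RIP, against 18.7%, 30.3% and 29.8% of all genes, and 7, 7 and 5 higher, against 22.4%, 42.4% and 42.5% (41.1%, 72.6% and 72.2% in either direction). Over 14681 protein-coding genes with the same input minimum, 28.2%, 50.9% and 51.4% were lower and 31.7%, 20.1% and 19.6% higher. In the YTHDF2-ADAR and YTHDF3-ADAR lines, members were therefore lower less often than those protein-coding genes. PSMD11 had differences of -2.68, -2.41 and -2.45. PSMB10 was higher in YTHDF1 RIP by 1.03, 1.26 and 1.47. The member medians were -0.43, -0.35 and -0.30, with 0.04, -0.47 and -0.48 over those protein-coding genes. The member medians became -0.47, 0.07 and 0.12 with TMM on protein-coding genes. Under that scaling the balance of calls turned over outside YTHDF1-ADAR cells, with 16 higher and 9 lower in YTHDF2-ADAR cells and 18 and 10 in YTHDF3-ADAR cells (7 and 23 in YTHDF1-ADAR cells). Mitochondrial scaling left none higher and 41, 43 and 45 lower.

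The enrichment in YTHDF1 RIP differed between the 3 lines for 9 members (edgeR F test of the interaction), against 63.7% of all genes tested and 63% of protein-coding genes. Between YTHDF2-ADAR and YTHDF3-ADAR cells it differed for none of 46 by edgeR, none had an unadjusted p under 0.05, and 0.00628% of all genes were called. The 9 therefore set YTHDF1-ADAR cells against the other lines, whose 6 YTHDF1 RIP libraries are those with low totals and high snoRNA shares; their part in the result was not tested. The fusion, the line and those library properties cannot be told apart here.

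PSMB5 had the largest rise of this kind. Its YTHDF1 RIP levels were 80.5, 71.3 and 91.0 CPM in YTHDF1-ADAR cells, near input, and 23.7, 33.3 and 32.3 in YTHDF2-ADAR and 27.8, 28.3 and 20.6 in YTHDF3-ADAR cells, far below. The log2 fold changes against input were -0.21 (edgeR adjusted p = 0.357), -2.0 (5.51e-11) and -2.07 (3.87e-11), and the first exceeded the mean of the others by 1.83 ± 0.23 (F test, edgeR adjusted p = 7.76e-08). PSME4 (0.90 ± 0.22), PSMD2 (0.88 ± 0.25) and PSMD7, a structural lid subunit (1.04 ± 0.34), were also higher in YTHDF1-ADAR cells. Lower there were PSMC6 (-1.34 ± 0.26), PSME2 (-1.06 ± 0.19), PSMA3 of the alpha ring (-0.93 ± 0.22), PSMC3IP (-0.90 ± 0.21) and the sparsely counted PSMD5 (-2.71 ± 0.57). The median of this difference was -0.45 over all genes tested, 0.37 over protein-coding genes with the same input minimum and 0.08 over members. Higher in YTHDF1-ADAR cells were 7 members, against 26.9% of all genes and 44.2% of those protein-coding genes. Lower there were 8 members, against 42.4% and 23.7%. Scaling turned this balance: TMM on protein-coding genes gave a member median of -0.34, with 2 higher and 20 lower, and another TMM reference library 0.41, with 13 higher and 5 lower.

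Most of these 9 calls held without any 1 library. PSMD7 was lost without YTHDF1-ADAR YTHDF1 RIP replicate 3 (edgeR adjusted p = 0.28) or input replicate 1 (0.12), and without the former 15 members were called. PSMD2 was lost with TMM on protein-coding genes (edgeR adjusted p = 0.19) and with total counts (0.07), and PSME4 with the former (0.052). PSMA3 (0.058) and PSMC3IP (0.076) were lost with another TMM reference library.

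**Figure D5:**
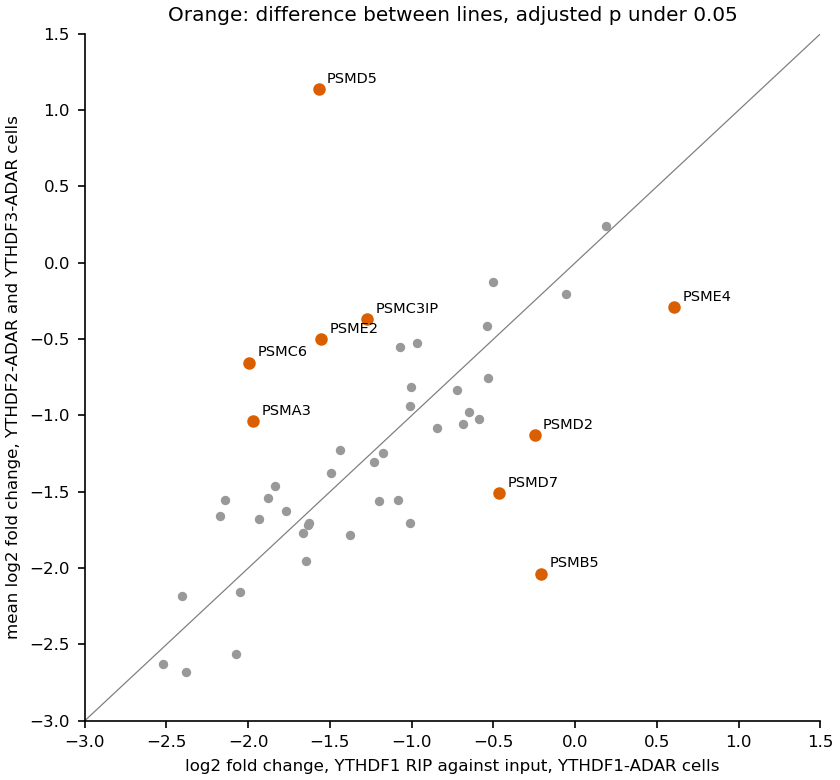
Log2 fold change of YTHDF1 RIP against input in YTHDF1-ADAR cells (horizontal axis) and its mean in the other 2 lines (vertical axis) for 46 members (points), with the line of equality; orange points are members whose enrichment differed between lines. PSMB5 (1.83 higher in YTHDF1-ADAR cells) lies furthest below the line and PSMD5 (2.71 lower) furthest above it.

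For YTHDF2 RIP and YTHDF3 RIP, no member differed between lines by edgeR, against 0% and 0.00628% of all genes; 4 and 2 members had an unadjusted p under 0.05. Some members looked uneven without passing: PSMB3 in YTHDF2 RIP was at -2.7, -1.46 and -1.73, and PSMD2 at 1.87, 1.46 and 1.08.

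Length and abundance moved with these values in part. Across the 46 members, which share libraries, Spearman's rho between exon length and log2 fold change was 0.15 to 0.48 over the 9 RIP comparisons. With input level per kb it was -0.63 and -0.61 in YTHDF1 RIP of YTHDF2-ADAR and YTHDF3-ADAR cells, -0.18 in that of YTHDF1-ADAR cells, -0.26 to -0.23 in YTHDF3 RIP and -0.01 to 0.01 in YTHDF2 RIP. The same input libraries enter the level and the fold change, so both are linked by construction. Beta ring genes had a median exon length of 1788 bases, the ATPases 5204 and the alpha ring 5734. The part of length in the result was not tested.

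A list of 32 genes that act with the proteasome (ubiquitin precursors, receptors, assembly factors and the regulators of subunit genes) was read beside the members; all 32 were tested. In YTHDF1 RIP 7, 1 and 1 rose, against 20.6%, 41.8% and 40.8% of all genes, and 15, 27 and 26 fell, against 28.8%, 33.4% and 32.4%. Of the 14681 protein-coding genes with the members' input minimum, 30.8%, 18.7% and 18.6% rose there and 38.9%, 55.4% and 54.5% fell. In YTHDF2 RIP 9, 9 and 8 rose, against 8.66%, 10.2% and 8.98%, and 13, 11 and 9 fell, against 15.5%, 10.1% and 9.93%. Of those protein-coding genes, 15.5%, 18.0% and 15.9% rose in YTHDF2 RIP and 23.8%, 14.4% and 14.1% fell. In YTHDF3 RIP 7, 7 and 8 rose, against 11.5%, 15.2% and 13.5%, and 14, 12 and 11 fell, against 20.1%, 16.9% and 16.1%. Of those protein-coding genes, 19.8%, 23.2% and 23.0% rose in YTHDF3 RIP and 28.4%, 25.2% and 23.6% fell. NFE2L1, the transcription factor that raises subunit genes when the proteasome is impaired, rose in YTHDF2 RIP by 1.03, 0.95 and 0.89 and in YTHDF3 RIP by 0.74, 0.67 and 0.79. In YTHDF1 RIP NFE2L1 rose by 1.80 ± 0.14 in YTHDF1-ADAR cells and fell by 1.10 and 0.95 in the others. POMP, the chaperone that matures the beta ring, fell in all 9 comparisons, by 2.63, 2.57 and 2.60 in YTHDF1 RIP, 2.14, 1.29 and 1.55 in YTHDF2 RIP and 2.83, 2.59 and 2.69 in YTHDF3 RIP. RPS27A, which encodes ubiquitin fused to a ribosomal protein, fell in YTHDF1 RIP of YTHDF1-ADAR cells by 2.38, and the shuttle receptor UBQLN2 (1.33) and MAFK, a small MAF partner of NFE2L1 (1.06), rose.

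The authors' deposited editing tables, which pool replicates, list 21 members among 7829 genes in YTHDF1-ADAR cells, 10 among 2402 in YTHDF2-ADAR cells and 7 among 2944 in YTHDF3-ADAR cells, with 87, 19 and 21 sites. There were 46 members and 60675 genes counted, of which 14681 protein-coding genes had the same input minimum. How many listed genes met that minimum was not counted, so the rates of listing were not compared. PSMD2 and PSMB3 are among the 21 listed in no line, and PSMB2, PSMB4, PSMC5 and PSMD7 are listed in all 3. In YTHDF1-ADAR cells a listed member had a median of 2 sites, against 6 for all listed genes, and a median editing level of 1.47% in input, against 2.50%. In the RIPs the medians were 1.80%, 2.09% and 1.81% (YTHDF1, YTHDF2 and YTHDF3 RIP), against 3.71%, 3.39% and 3.18%. In the other lines a listed member had a median of 1.5 sites (YTHDF2-ADAR) and 2 sites (YTHDF3-ADAR), against 1 for all listed genes in each.

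PSME4 had the most sites, 18, with an editing level in YTHDF1-ADAR cells of 2.08% in input and 3.31%, 3.20% and 3.11% in the RIPs. PSMA1, with 11 sites, had 9.39% in input and 14.6%, 12.3% and 20.8% in the RIPs. PSMG3, with 6 sites, was the 1 member past the threshold in the authors' deposited table: 7.50% in input and 10.8% in YTHDF2 RIP, with a natural log odds ratio of 0.401 and an adjusted p of 0.019. In YTHDF1, YTHDF2 and YTHDF3 RIP of YTHDF1-ADAR cells, 0, 1 and 0 of 21 listed members passed, against 636, 128 and 88 of 7829 listed genes. In the other lines 0 members passed, against 64, 6 and 35 of 2402 genes (YTHDF2-ADAR) and 86, 3 and 54 of 2944 (YTHDF3-ADAR). PSMD11, with 4 sites, had 0.679% in input and 0.619 to 0.793% in the RIPs. The depth behind these levels is unknown.

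In the authors' deposited DESeq2 table, which gives 1 comparison per RIP and does not state the lines in it, PSMD2 has log2 fold changes of -1.02, 1.59 and 0.43 in YTHDF1, YTHDF2 and YTHDF3 RIP, PSMD11 of -1.53, -0.23 and 1.32, PSME4 of -0.11, 0.83 and 1.06, and PSMB3 of -2.84, -1.77 and -2.73. By these deposited values, 0, 6 and 5 members are higher and 42, 21 and 33 lower. The shares of all genes higher and lower by the deposited values were not counted. These member counts therefore cannot be set against a background.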

How the data were processed

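Gene counts of 36 HEK293T libraries (12 groups of 3, from the labels) were used. STAR 2.7.7, featureCounts 2.0.1, DESeq2 and the build GRCh38 are named in the submitters' processing notes. The deposited read counts keep multi-mapping and overlapping reads, drop marked duplicates and ignore strand, per the file headers. The authors' deposited DESeq2 table gave the symbols and has a baseMean (a mean signal), log2 fold changes and p-values. The authors' deposited editing tables have site numbers, scores, p-values and odds ratios on a natural log scale. Judged by the values, a score is sites times an editing fraction (matched within 1e-06). The editing level here is 100 times score over sites. No column of counts was left out (0 not used).

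Genes passing edgeR's filterByExpr (31849 of 60675) were scaled by TMM and fitted in 1 model of 12 groups (edgeR 4.0.16, R 4.3.3, quasi-likelihood, robust), with Benjamini-Hochberg adjustment over all genes tested and a threshold of 0.05. CPM values are TMM-scaled. The steps were tested on simulated counts. Alternatives were other scalings, no filter, DESeq2 1.42.0, a replicate block, lines fitted alone, a 2-fold threshold and leaving out libraries; the last kept genes and scaling of all libraries. Precision is the SE of a fold change or the SD over libraries; totals of 12.5 to 37.5 M counts limit it for sparse genes such as PSMD5. Editing was described by the authors' values, since replicates are pooled; the planned unit was sites.

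The members, lists and rules were chosen with earlier results of these data known. Named genes were PSMD2 throughout, the 3 highest and 3 lowest members per RIP and line, the extremes of each subunit group by the mean of 9 comparisons, up to 5 members called against the majority, and the 3 smallest p of each other comparison; from the list of 32 genes, the 3 highest and 3 lowest in YTHDF1 RIP of YTHDF1-ADAR cells and NFE2L1; 1 gene that met this rule is not reported here. PSMB7, PSMC5, PSMD9, PSMF1, PSME3 and other members outside that rule were chosen after their values were seen. Promoter windows are from RefSeq (GRCh38.p14).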

Additional observations from a re-analysis of the deposited data

Results flagged for a closer look

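The enrichment of 9 members in YTHDF1 RIP differed between the fusion lines by edgeR's F test of the interaction, which is why they are listed here; the value is the log2 fold change in YTHDF1-ADAR cells minus the mean of the other lines. PSMB5 had 1.83, PSMD7 1.04, PSME4 0.90 and PSMD2 0.88. PSME2 had -1.06, PSMC6 -1.34, PSMA3 -0.93, PSMC3IP -0.90 and PSMD5 -2.71. Of all genes tested, 63.7% differed by the same test.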

How the results depend on the processing

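Counts of called members stayed within 1.5 times the reported count in most settings: 23 comparisons with DESeq2 size factors, 23 with the DESeq2 test, 22 each with total counts, TMM on protein-coding genes, another TMM reference and no filter, and 171 of 180 with 1 library left out. Scaling to mitochondrial mRNAs left 9 within that range. It gave 4, 1 and 4 members in YTHDF2 RIP against input, 11, 11 and 9 in YTHDF3 RIP against input, 6, 2 and 1 in YTHDF2 RIP minus YTHDF3 RIP, 45 in YTHDF1 RIP minus YTHDF2 RIP of YTHDF1-ADAR cells, 43 and 45 in YTHDF1 RIP minus YTHDF3 RIP of the other lines, 4 and 0 between YTHDF1-ADAR input and the others, and 3 between lines in YTHDF1 RIP. Under it the sign reversed for PSME4 in YTHDF1 RIP of YTHDF1-ADAR cells (-0.48), PSMG4 in YTHDF1 RIP of the other lines (-0.41 and -1.51), PSMD5 in YTHDF1 RIP of YTHDF3-ADAR cells (-0.48), and PSMB1 (0.094) and PSMA2 (0.30) between YTHDF1-ADAR and YTHDF2-ADAR inputs. With total counts PSMB10 in YTHDF1 RIP of YTHDF2-ADAR cells reversed (0.49). The cause was not tested.

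A 2-fold threshold left 14, 5 and 9 members in YTHDF2 RIP and 19, 21 and 23 in YTHDF3 RIP, by its construction. The YTHDF1-ADAR line fitted alone gave 18 in YTHDF2 RIP. The difference between lines in YTHDF1 RIP covered 18 members with total counts, 19 with TMM on protein-coding genes, 14 with another TMM reference and 9 to 15 with 1 library left out; without a filter 1 member differed in YTHDF2 RIP. Between inputs, YTHDF1-ADAR against YTHDF2-ADAR gave 1 to 3 and against YTHDF3-ADAR 0 to 4 with 1 library left out; leaving out a pair of libraries gave 1, 0 and, for YTHDF2-ADAR against YTHDF3-ADAR, 2; leaving out the 6 YTHDF1 RIP libraries gave 1 and 1; another TMM reference and no filter gave 5 against YTHDF3-ADAR. YTHDF2-ADAR against YTHDF3-ADAR gave 1 with DESeq2 size factors, 2 with total counts, 1 with TMM on protein-coding genes and 2 with DESeq2. Editing limited to 3 or more sites left 10, 3 and 3 members.

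Replicate numbers did not pair the samples: deviations of same-numbered libraries correlated from -0.657 to 0.548 (23 of 54 pairs over 0.1). In 18 of 54 comparisons with another group of its line, a library correlated best with its own number. With the number as a replicate block, 22 counts stayed within 1.5 times, and inputs of YTHDF1-ADAR cells gave 1 and 1.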
